A study of Homo sapiens with 17 samples.

Results

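The HOX cluster genes are the 39 counted genes whose symbol is HOXA, HOXB, HOXC or HOXD followed by a number, of 19141 genes in the count table, and they comprise 11 HOXA, 10 HOXB, 9 HOXC and 9 HOXD genes. The rule uses the symbol and no measured value. YB5 cells are a reporter line made from the SW48 colorectal cancer line by a single insertion of a GFP gene behind a silenced CMV promoter, so the data describe 1 engineered line. The cells received toyocamycin, an adenosine analog from Streptomyces, at 250 nM, or the vehicle DMSO, and polyadenylated RNA was sequenced from 8 DMSO and 9 toyocamycin libraries. For either arm there were 2 libraries of 2 h, 3 of 72 h and 1 each of the 24 and 48 h times, and 10 h had 1 DMSO and 2 toyocamycin libraries; the last time is 72 h in the sample labels and 96 h in the study's text, and the labels' time is used here. Gene counts summed to 8735465 in the shallowest library and to 22121364 in the deepest. Replicate 2 of each arm at 2 and 10 h belonged to the labelled batch 2 and every other library to batch 1. Replicate 2 of toyocamycin at 10 h stood apart: it was the shallowest library, and 73.2% of the 5490 genes that were silent on DMSO had over 3 counts in it, against 5.70% in replicate 1. Levels are given as CPM, the count of a gene divided by its library's TMM-scaled total and put on a common scale, which makes every change relative to the typical gene. In bulk RNA a change in the number of cells that express a gene cannot be told apart from a change in RNA per cell.

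HOX genes encode homeodomain transcription factors that give cells their position along the head-to-tail axis. In each of the 4 clusters the genes lie in numerical order and are transcribed in the same direction, with low numbers used in anterior parts of the embryo and high numbers in posterior ones. Adult colon epithelium keeps a HOX code of its own, in which middle and posterior HOXA and HOXB genes are prominent. Polycomb complexes hold silent HOX genes under histone H3 lysine methylation, Trithorax and MLL complexes maintain active ones, and PBX, MEIS and PKNOX proteins bind DNA together with HOX proteins.

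In GRCh38, the HOXA cluster spans chromosome 7 from 27092993 to 27200091 on the minus strand, and the HOXB cluster spans chromosome 17 from 48528526 to 48728750 on the minus strand. The HOXC cluster lies on the plus strand of chromosome 12 from 53938831 to 54056030, and the HOXD cluster on the plus strand of chromosome 2 from 176092721 to 176190907. Exons of 25 of the 39 genes overlap those of another annotated gene. In HOXA7 only 37.5% of the exonic bases belong to no other gene, in HOXD1 39.9% and in HOXC5 32.7%. The strand setting of the counting is not given in the sources used here, so reads of a HOX gene and of its antisense partner may not be separable in such genes.

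Upstream sequence was at hand for 20 of the 39 genes, from RefSeq's GRCh38 annotation. The 250 bases upstream of the start are shown for HOXA9, which was higher on toyocamycin at 72 h, for HOXA13, which was lower, and for HOXD13, which was silent on DMSO and counted at 72 h. The HOXA9 window is chr7:27165538-27165787, the HOXA13 window is chr7:27200092-27200341, both on the minus strand, and the HOXD13 window is chr2:176092471-176092720 on the plus strand. Letters are written 5′ to 3′ along the gene, and capitals mark matches, on either strand, to the E-box CACGTG, the TATA box TATAAA, the caudal motif TTTATG or the HOX-PBX motif TGATTNAT, which can overlap one another.
HOXA9: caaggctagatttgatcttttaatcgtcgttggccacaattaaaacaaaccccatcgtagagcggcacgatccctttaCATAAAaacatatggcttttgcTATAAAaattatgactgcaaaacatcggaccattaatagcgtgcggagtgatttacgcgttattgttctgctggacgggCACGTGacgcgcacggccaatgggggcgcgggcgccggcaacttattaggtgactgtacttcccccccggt
HOXA13: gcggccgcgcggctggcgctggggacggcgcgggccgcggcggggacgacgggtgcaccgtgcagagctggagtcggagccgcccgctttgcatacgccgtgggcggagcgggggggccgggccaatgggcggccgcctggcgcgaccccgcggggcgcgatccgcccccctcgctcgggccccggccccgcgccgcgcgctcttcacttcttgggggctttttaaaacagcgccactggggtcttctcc
HOXD13: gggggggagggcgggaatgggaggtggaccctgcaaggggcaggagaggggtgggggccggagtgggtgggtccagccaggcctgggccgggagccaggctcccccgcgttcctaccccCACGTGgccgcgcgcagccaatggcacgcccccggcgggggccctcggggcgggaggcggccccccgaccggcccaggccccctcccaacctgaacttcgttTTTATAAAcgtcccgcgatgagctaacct
The HOXA9 window holds an E-box, a TATA box and a caudal motif, the HOXD13 window an E-box and a TATA box, and the HOXA13 window none of the 4. Among all 35116 windows, 6.34% hold the E-box, 10.7% the TATA box, 9.64% the caudal motif and 2.48% the HOX-PBX motif. The 3 windows hold 20, 40 and 21 CpG dinucleotides in the order shown, against a median of 11 over all windows and 19 over the 27 HOX windows. These matches describe letters only, and binding was not measured.

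On DMSO, 25 HOX genes were expressed, taken as a mean of at least 1 CPM over the 8 libraries. A further 6 were silent, with at most 3 counts in every DMSO library, and 8 were low, between these limits. HOXA held 10 expressed genes of 11 and HOXB 9 of 10, whereas HOXC held 4 of 9 and HOXD 2 of 9. The silent genes were HOXB1, HOXC5, HOXC12, HOXD10, HOXD11 and HOXD13, and the low genes were HOXA2, HOXC8, HOXC9, HOXC11, HOXD1, HOXD4, HOXD9 and HOXD12. By this cut the HOXA and HOXB clusters were in use over nearly their whole length, and HOXD at HOXD3 and HOXD8. Below the cut, HOXD12 had a mean of 0.716 CPM and HOXD4 one of 0.387, beside 1.45 for HOXD3.

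The HOXB cluster carried 76.1% to 84.3% of the summed HOX CPM in the 8 DMSO libraries and HOXA 12.3% to 20.0%. HOXC held 1.75% to 3.31% and HOXD 1.13% to 2.25%. HOXB9, a middle-to-posterior gene of the cluster, accounted for 37.8% to 44.1% of the sum by itself, without adjustment for gene length. Per kilobase of exon, HOXB9 had the highest mean level on DMSO, 142 CPM per kb, followed by HOXB8 at 66.1, HOXB7 at 41.2 and HOXA9 at 21.3. Below them came HOXB5 at 16, HOXB6 at 14.8, HOXB2 at 9.4 and HOXA5 at 8.28 CPM per kb. The expressed genes with the lowest mean levels per kb were HOXD3 at 0.391, HOXC4 at 0.515 and HOXC6 at 0.531.

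**Figure D1:**
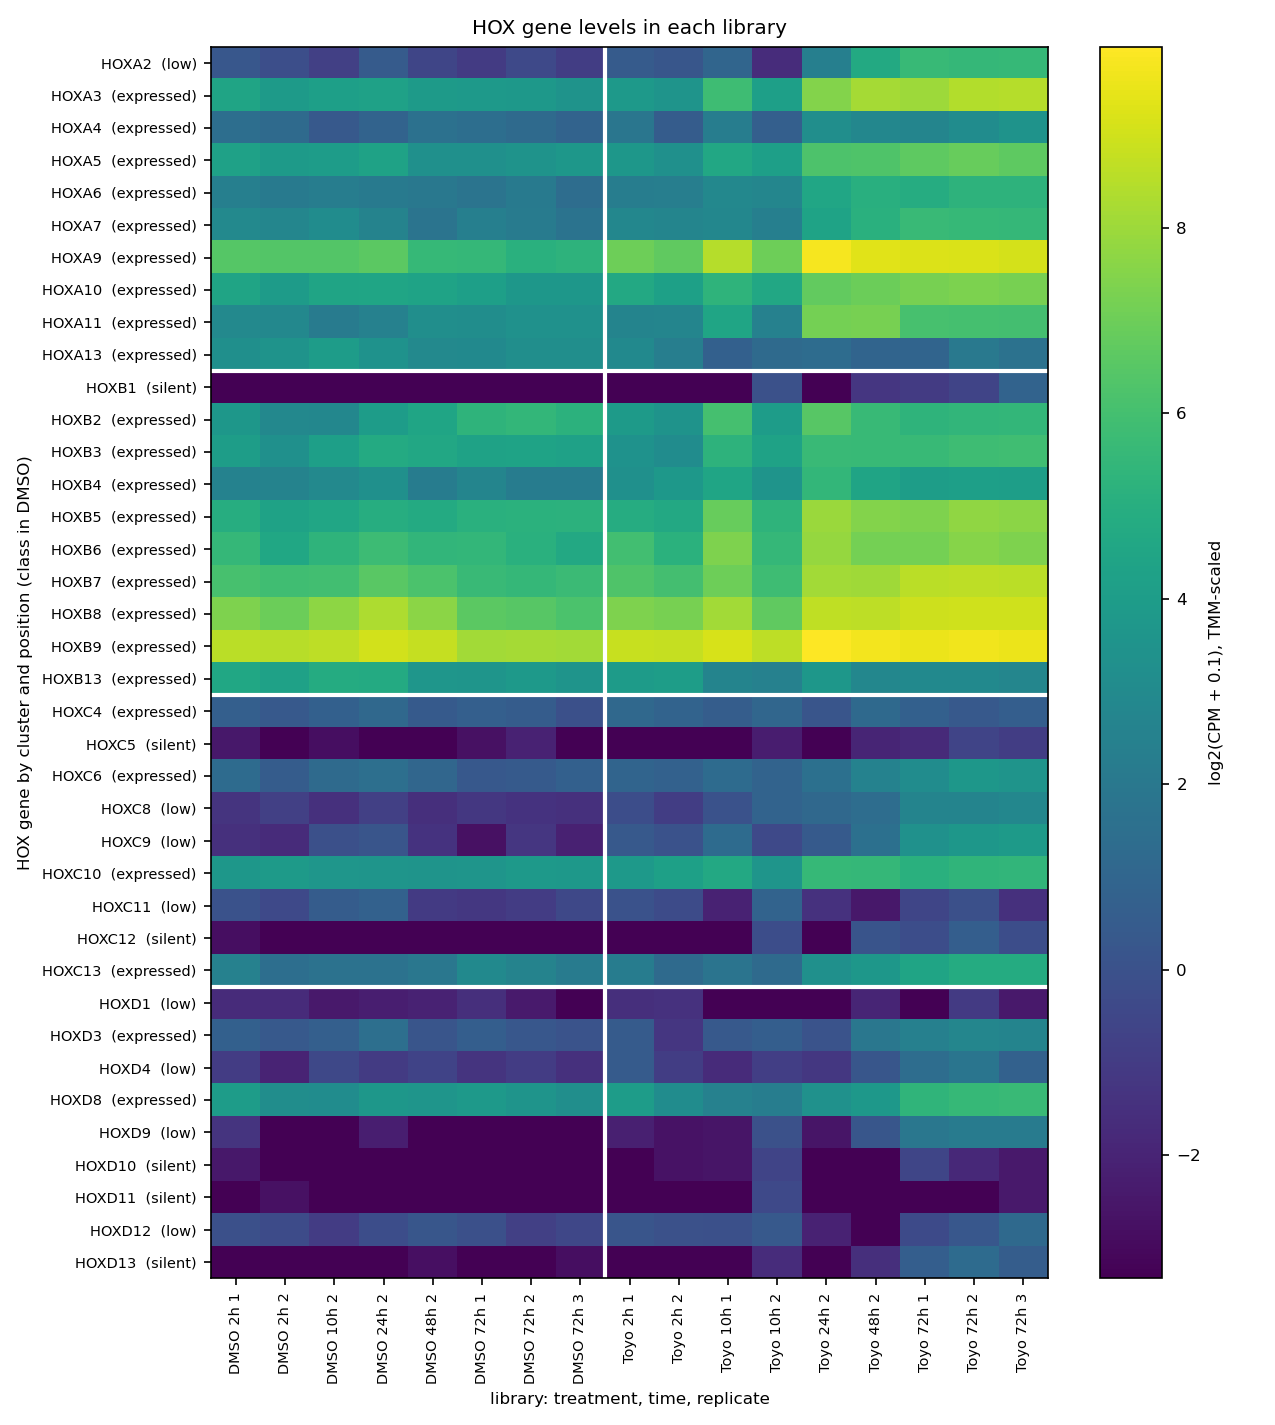
Level of HOX genes (rows, by cluster and number, with its class on DMSO) in each of the 17 libraries (columns), as log2 of CPM plus 0.1. White lines part the clusters and the treatments; HOXA9 and HOXB9 are among the brightest rows from 24 h of toyocamycin on, and replicate 2 of toyocamycin at 10 h shows counts in rows that are dark on DMSO.

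Some HOX genes moved with time in culture on DMSO alone. Between 2 and 72 h of DMSO (2 against 3 libraries), 4 of the 35 tested HOX genes rose and 9 fell, by the quasi-likelihood test of edgeR with p-values adjusted after Benjamini and Hochberg and a threshold of 0.1, where 10.2% of all 14491 genes tested rose and 11.4% fell. HOXB2, a hindbrain patterning gene, was at 13.1 and 7.25 CPM at 2 h and at 39.8, 43.4 and 36.5 at 72 h, every later library above every earlier one. Its log2 fold change was 1.96 ± 0.22 (SE), edgeR adjusted p = 4e-05. HOXA9 went the other way, from 87.1 and 83.7 to 45.6, 33.6 and 38.3 CPM, a log2 fold change of -1.12 ± 0.15. HOXA11, HOXB3 and HOXB5 also rose, by 0.43, 0.59 and 0.49 on the log2 scale. HOXB8 fell by 0.76, HOXB13 by 0.81, HOXA7 by 0.75, HOXA5 by 0.56, HOXA3 by 0.53 and HOXB9 by 0.43. The low genes HOXA2 and HOXD9 were called lower as well. These counts rest on single libraries: 4 fell without replicate 1 of 2 h, 1 rose without replicate 2 of 2 h, and without replicates 1, 2 or 3 of 72 h in turn 2, 1 and 2 rose and 5, 5 and 6 fell. Under mitochondrial scaling 1 rose and 0 fell. The single libraries of 10, 24 and 48 h add that HOXB8 peaked on DMSO at 24 h, with 315 CPM against 167 and 125 at 2 h and 196 at 48 h. Each comparison of toyocamycin below is therefore made against DMSO of the same time.

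At 2 h of toyocamycin, 2 HOX genes were called higher and 1 lower of the 35 tested, where 0.518% of all genes were called higher and 8.42% lower. HOXB4, which is known for expanding blood stem cells, was at 5.85 and 5.96 CPM on DMSO and 10.2 and 13.5 on toyocamycin. The groups did not overlap, and the log2 fold change was 1.0 ± 0.22 (SE, 2 libraries per arm), edgeR adjusted p = 0.00892. HOXC9, a trunk-level gene that was low on DMSO, was at 0.252 and 0.206 CPM on DMSO and 1.2 and 0.921 on toyocamycin, a log2 fold change of 2.18 ± 0.54 with edgeR adjusted p = 0.0209. Within batch 1 the log2 ratios were 0.79 for HOXB4 and 1.88 for HOXC9, and within batch 2 they were 1.16 and 1.74.

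The replicate number is also the batch at 2 h, and with it as a block in a fit of those 4 libraries 4 HOX genes were called higher and 6 lower of 29 tested, where 8.72% of the 11848 genes in that fit were higher and 18.7% lower. In that fit HOXA9 and HOXB6 joined the higher genes, at 0.45 and 0.50 on the log2 scale. HOXA3, HOXA5, HOXA13, HOXB3 and HOXB13 joined the lower ones, at -0.51, -0.55, -0.73, -0.43 and -0.43. Both toyocamycin libraries lay below both DMSO libraries for HOXA13 and HOXB13, whereas HOXC13, also expressed, overlapped at 4.64 and 2.33 CPM against 5.64 and 2.72. HOXA13 was at 7.71 and 4.93 CPM against 9.72 and 11.1, and HOXB13 at 15.4 and 16.8 against 23.7 and 19.4. The calls at 2 h depend on single libraries, with 1 to 4 genes higher and 1 to 4 lower when each library was left out; HOXC9 lost its call without replicate 2 of DMSO or replicate 1 of toyocamycin, and HOXB4 without replicate 2 of toyocamycin. HOXB4 also missed the threshold when a 1.5-fold minimum was required, and all 3 calls were lost under scaling on the mitochondrially encoded genes. Of the 25 expressed members, 4 had both toyocamycin libraries above both DMSO libraries and 6 had both below, while 15 overlapped, where 16.7% of all genes tested lay above and 20.3% below.

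At 10 h the HOX genes had begun to part. The fit of all 17 libraries called 10 of 36 tested members higher and 3 lower, against 20.4% and 24.4% of 16521 genes. The DMSO arm at 10 h is 1 library, so this test assumes that it varies like the libraries of the other groups. Under mitochondrial scaling 1 was higher and 5 were lower. The higher genes included HOXB2 (2.58 ± 0.59, log2 ± SE), HOXB5 (1.79 ± 0.46), HOXA11 (1.65 ± 0.49), HOXA9 (1.5 ± 0.41), HOXB6 (1.46 ± 0.58), HOXA4 (1.44 ± 0.65), HOXB4 (1.18 ± 0.34) and HOXA3 (1.12 ± 0.46), with HOXC8 and HOXD9 among the low genes. HOXA13, a gene of the most posterior segments, hindgut and digits, fell by 3.10 and HOXB13, used in the hindgut and prostate, by 2.27 on the log2 scale.

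The toyocamycin libraries of 10 h differed among themselves. HOXA9 was at 349.6 and 131 CPM in replicates 1 and 2 against 84.8 on DMSO, and HOXB2 at 66.2 and 15.9 against 6.92. HOXA13 was at 1.57 and 2.32 CPM against 16.3, and HOXB13 at 6.21 and 5.52 against 28.5, so the fall of these genes was present in each replicate. The DMSO library of 10 h was the highest of all 8 for both genes, and the lowest for HOXB2, HOXA11 and HOXA4. For HOXB5, HOXA9, HOXB6, HOXB4 and HOXA3 it lay inside the range. Replicate 2 of toyocamycin lay within the range of the 8 DMSO libraries for HOXB2, HOXA11 (5.63 CPM) and HOXA4 (1.545 CPM). The same held for HOXA3 (18.1 CPM) and HOXB6 (45.5 CPM), whereas replicate 2 lay above that range for HOXA9, HOXB5 and HOXB4. Both toyocamycin libraries lay below all 8 for HOXA13 and HOXB13. Within batch 2, the shallow library against DMSO, the log2 ratios were 0.63 for HOXA9, 1.19 for HOXB2, -2.76 for HOXA13 and -2.35 for HOXB13. Replicate 1, of batch 1, against the same DMSO library, of batch 2, gave log2 ratios of 2.04, 3.24, -3.30 and -2.18 in that order. In these ratios drug and batch cannot be told apart. Leaving out either toyocamycin library left 1 per arm, so no calls are counted for those fits. Of the 6 silent members, 4 had over 3 counts in the shallow library and 0 in replicate 1, beside the 73.2% of all silent genes given above.

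The 24 and 48 h comparisons rest on 1 library per arm, so no test is given. At 24 h, 17 of 35 HOX genes were at least 2-fold higher and 6 at least 2-fold lower, where 29.7% and 27.8% of all genes were. At 48 h the counts were 27 and 3, where 38.1% and 29.9% of all genes were. The HOXA cluster led: its summed level was 7.49-fold that of DMSO at 24 h, compared with 2.16-fold for HOXB, 2.77-fold for HOXC and 0.696-fold for HOXD.

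HOXA9, a regulator of blood progenitors, reached 881 CPM at 24 h against 96.3 on DMSO, its highest level in the series. HOXA11, used in the forearm, kidney and uterus, stood at 143 CPM at 24 h and 149 at 48 h against 5.53 and 9.38 on DMSO. It then lay at 67.7, 65.1 and 62.5 CPM at 72 h. HOXB2 was highest at 24 h, with 92 CPM. Of the 25 expressed genes, 13 had their highest toyocamycin mean at 72 h, 2 (HOXA11 and HOXC4) at 48 h, 8 at 24 h and 2 (HOXA13 and HOXB13) already at 2 h. The 8 genes of 24 h were HOXA4, HOXA9, HOXB2, HOXB4, HOXB5, HOXB6, HOXB9 and HOXC10. HOXD8 was near DMSO, at 10.5 and 13.6 CPM at 24 and 48 h against 13.1 and 11.8 on DMSO. At 10 h it had been at 5.57 and 4.75 CPM on toyocamycin, below all 8 DMSO libraries, the lowest of which was at 8.6.

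**Figure D2:**
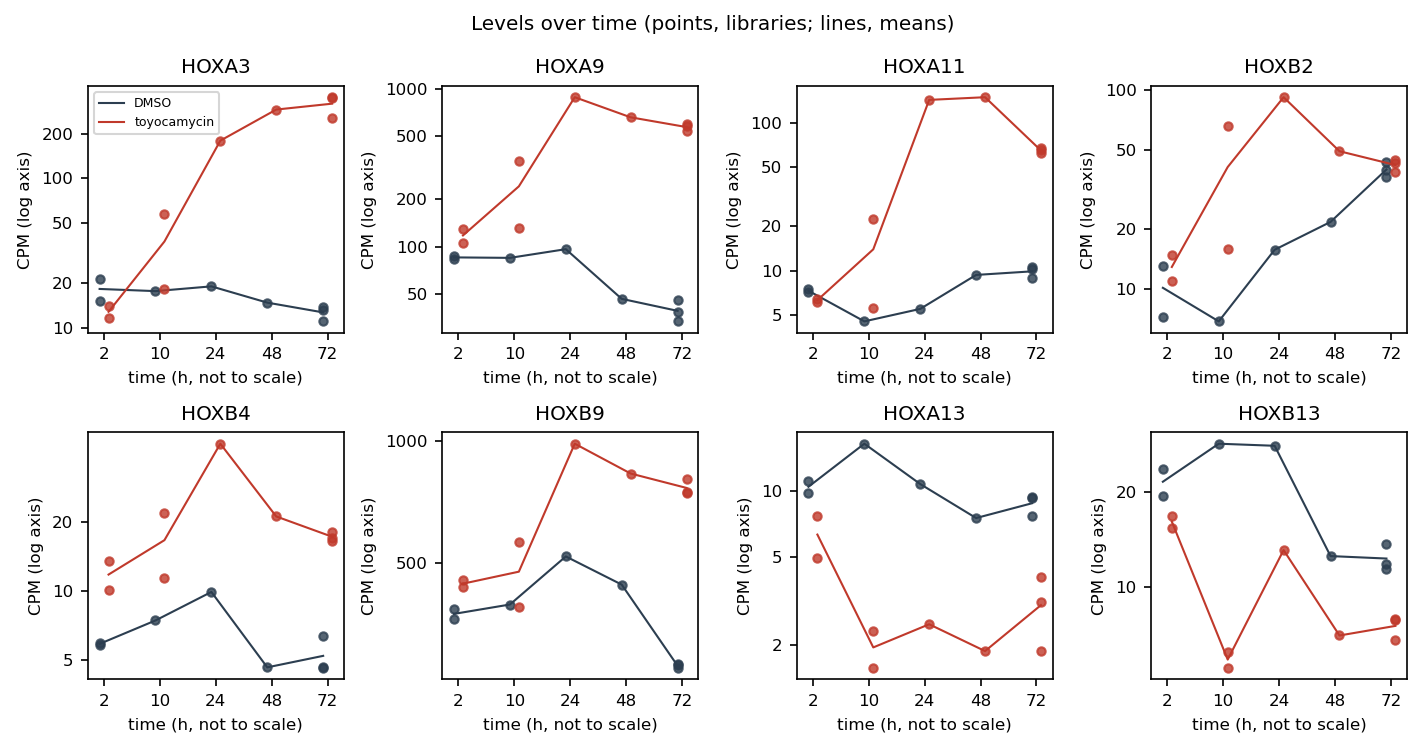
Level (CPM, log axis) of 8 HOX genes by time in hours (not to scale), with 1 point per library and lines through the means of DMSO (dark) and toyocamycin (red). HOXA9 is highest at 24 h, HOXB2 rises on DMSO too and meets it at 72 h, and HOXA13 and HOXB13 stay below DMSO from 2 h on.

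At 72 h (3 libraries per arm) 30 of the 35 tested HOX genes were higher on toyocamycin and 2 were lower, while 47.0% of all genes tested were higher and 41.9% lower. The median log2 fold change of the tested HOX genes was 2.58, against 0.18 for all genes, and it was the same with genes lacking DMSO counts set at their lower bound. Among the 25 expressed genes, 21 were higher and 2 lower, where 34.6% of all 11136 genes expressed on DMSO were higher and 53.7% lower. All 21 changed at least 2-fold and 17 of them at least 4-fold, from 1.49 to 4.68 on the log2 scale. Among the 7 tested low genes 6 were higher, where 80.1% of all low genes were higher and 4.25% lower, and among the 3 tested silent genes 3 were, where 99.6% were, shares near those of their class. Of the 6 silent genes, 3 had over 3 counts in every toyocamycin library of 72 h, where 21.8% of all silent genes did. In 31 of the 39 genes every toyocamycin library of 72 h lay above all 8 DMSO libraries, and in 2 genes every library lay below, where 41.3% and 37.5% of all genes did. The other scalings moved the median of all genes to 0.50 (size factors of DESeq2), -0.42 (library size alone) and -0.89 (mitochondrially encoded genes). The HOX median stood above the median of all genes by 2.40, 2.40, 2.40 and 2.36 under TMM and these 3 scalings, which is no separate check, since a scaling moves all genes by nearly the same amount. Across 12 other ways of processing, 21 to 32 HOX genes were called higher and 1 to 3 lower.

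The summed level of all HOX genes was 710 ± 31.7 CPM on DMSO and 3675 ± 161 CPM on toyocamycin (SD, n = 3), 5.17-fold. HOXA rose 12.4-fold in sum, HOXB 3.80-fold, HOXC 4.37-fold and HOXD 4.56-fold. The share of HOXB in the HOX sum was 79.2% ± 0.673 on DMSO and 58.2% ± 0.114 on toyocamycin (SD, n = 3), and that of HOXA was 15.6% ± 0.616 and 37.4% ± 0.444. The share of HOXB9 was 39.3% ± 1.45 on DMSO and 20.9% ± 0.493 on toyocamycin. In neither cluster did the shares of the 2 arms overlap. Along the clusters, Spearman's rho between gene number and log2 fold change was -0.27 over 11 HOXA genes, -0.26 over 10 HOXB genes, 0.24 over 8 HOXC genes and 0.14 over 6 HOXD genes, which share the same libraries. These are descriptions and were not tested.

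**Figure D3:**
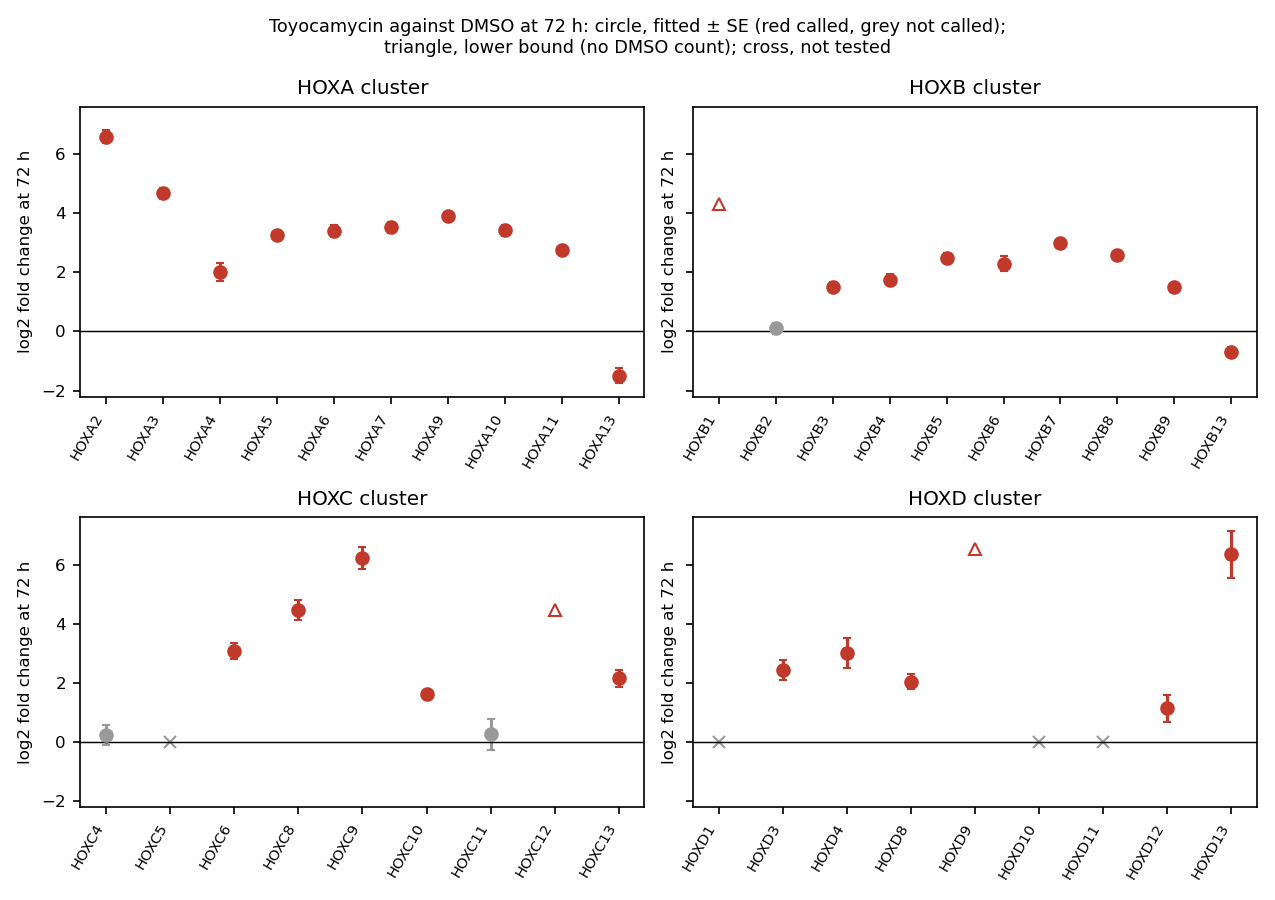
Fitted log2 fold change ± SE of toyocamycin against DMSO at 72 h for the HOX genes of each cluster, in numerical order. Triangles are lower bounds for genes without a DMSO count and crosses are genes not tested; HOXA13 and HOXB13 lie below 0 at the end of their clusters.

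**Figure D4:**
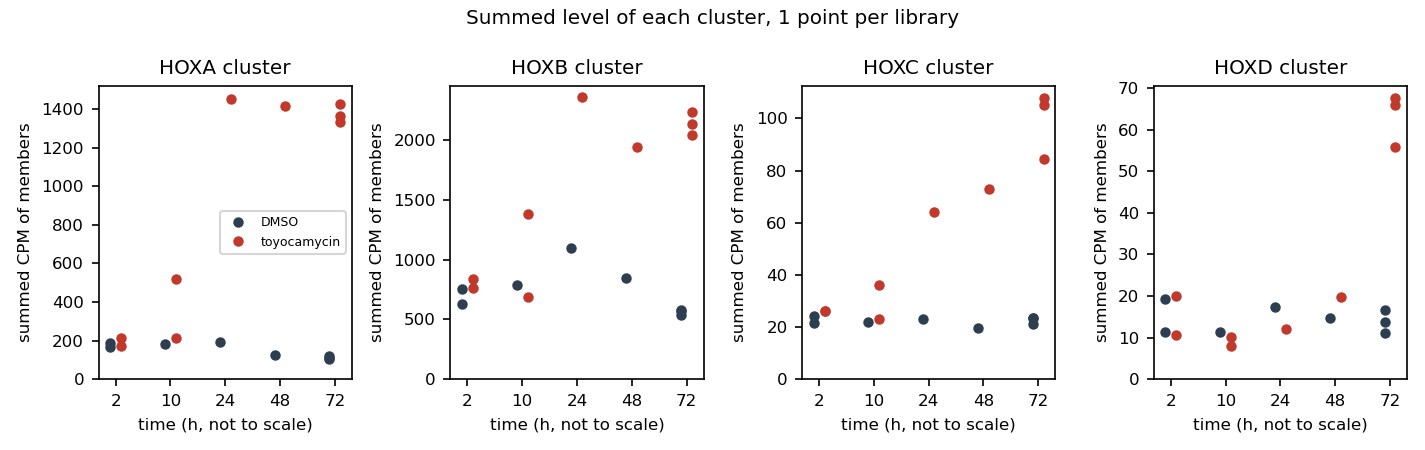
Summed CPM of the members of each cluster (linear axis from 0) by time in hours (not to scale), 1 point per library, for DMSO (dark) and toyocamycin (red). The 3 toyocamycin libraries of 72 h lie above all DMSO libraries in every cluster. In HOXD both toyocamycin libraries of 10 h lie below all DMSO libraries, and those of 2, 24 and 48 h lie within or near the DMSO range.

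In the HOXA cluster 10 of 11 genes were higher at 72 h, with a median log2 fold change of 3.41. HOXA3 was at 13.7, 13.2 and 11 CPM on DMSO and 255, 346 and 350.3 on toyocamycin; this gene of the third pharyngeal arch, thymus and parathyroid had the largest change of any expressed HOX gene, a log2 fold change of 4.68 ± 0.19 (SE, edgeR adjusted p = 6.06e-12). HOXA2, which sets the identity of the second pharyngeal arch, went from 0.396, 0.65 and 0.429 CPM, low on DMSO, to 48.2, 46.3 and 46.8, a log2 fold change of 6.59 ± 0.22. The groups were far apart in both genes. HOXA9 was at 45.6, 33.6 and 38.3 CPM on DMSO and 598, 576 and 536 on toyocamycin, a log2 fold change of 3.90 ± 0.15 with edgeR adjusted p = 3.83e-12. HOXA9 was the highest HOXA gene per kb in both arms and reached 188 CPM per kb on toyocamycin, with HOXA3 next at 73.6 and HOXA5 at 61.9.

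The genes of the middle of the cluster changed by similar amounts. HOXA5 was at 10.1, 11.3 and 12.7 CPM on DMSO and 102, 116 and 101 on toyocamycin, HOXA6 was at 3.32, 4.23 and 2.62 CPM on DMSO and 29.6, 38.5 and 37.7 on toyocamycin, and HOXA7 was at 5.15, 4.41 and 3.26 CPM on DMSO and 51.5, 47 and 45.4 on toyocamycin. The log2 fold changes of HOXA5, a gene of lung and diaphragm development, HOXA6 and HOXA7 were 3.26 ± 0.16, 3.41 ± 0.20 and 3.52 ± 0.18. HOXA10, which patterns the uterus and lumbar spine, was at 18.1, 12.8 and 13 CPM on DMSO and 150.1, 158 and 151 on toyocamycin, and its log2 fold change was 3.42 ± 0.18. In each of these genes the lowest toyocamycin library was above the highest DMSO library of any time. HOXA11 had a log2 fold change of 2.75 ± 0.13 from 8.97, 10.5 and 10.3 CPM on DMSO. HOXA4 was at 2.63, 2.32 and 1.76 CPM on DMSO and 6.49, 8.8 and 11.1 on toyocamycin (2.02 ± 0.32), the smallest rise of the cluster.

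HOXA13, at the 5′ end of the cluster, was the exception. It was at 7.68, 9.34 and 9.27 CPM on DMSO and 1.87, 4.08 and 3.13 on toyocamycin, every treated library below all 8 DMSO libraries, which ranged over 7.51 to 16.3 CPM (median 9.53). Its log2 fold change was -1.49 ± 0.26 (SE, edgeR adjusted p = 7.26e-05), whereas its neighbour HOXA11 rose.

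In the HOXB cluster 8 of 10 genes were higher and 1 was lower at 72 h, with a median log2 fold change of 2.02. The 8 include HOXB1, silent on DMSO, a class in which 99.6% of all tested genes were higher. HOXB7 was at 50.1, 46.3 and 53.3 CPM on DMSO and 381, 396 and 379 on toyocamycin; its log2 fold change of 2.98 ± 0.13 was the largest among the 9 expressed HOXB genes. HOXB8 was at 95.4, 90.4 and 74.2 CPM on DMSO and 493, 507 and 516 on toyocamycin, a log2 fold change of 2.58 ± 0.15. HOXB8 is known to hold back myeloid differentiation when overexpressed. HOXB9 was at 280, 281 and 276 CPM on DMSO and 748, 806 and 748 on toyocamycin, a log2 fold change of 1.49 ± 0.12 (edgeR adjusted p = 6.72e-09), so that the most abundant HOX gene of the DMSO cells had one of the smaller rises. Per kb of exon the order at 72 h of toyocamycin was HOXB9 at 297, HOXB7 at 254, HOXB8 at 210.2 and HOXA9 at 188 CPM per kb.

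HOXB5 was at 33.7, 35.8 and 36.9 CPM on DMSO and 167, 218 and 198 on toyocamycin, and HOXB6 was at 44.4, 33.8 and 25.7 CPM on DMSO and 142, 184 and 169 on toyocamycin. HOXB5, which acts in the neurons of the gut wall, and HOXB6 had log2 fold changes of 2.49 ± 0.16 and 2.29 ± 0.25. HOXB3 was at 20, 20.4 and 19.1 CPM on DMSO and 48.2, 57.4 and 59.3 on toyocamycin (1.5 ± 0.18), and HOXB4 was at 6.39, 4.64 and 4.68 CPM on DMSO and 16.5, 18.2 and 17.1 on toyocamycin (1.75 ± 0.18). The smaller rises of HOXB3, HOXB4 and HOXB9 did not pass the threshold under mitochondrial scaling, where they were 0.41, 0.64 and 0.40.

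HOXB2 was not called: it was at 39.8, 43.4 and 36.5 CPM on DMSO and 38.8, 42.8 and 44.5 on toyocamycin, which overlap, a log2 fold change of 0.11 ± 0.18 (edgeR adjusted p = 0.587). Its sign turned with the scaling, to -0.49 under library size alone and -0.98 under mitochondrial scaling, both called lower, and it was called higher at 0.43 under DESeq2's size factors. This gene had risen on DMSO over the same time, as given above. HOXB13 lies apart from the rest of its cluster, with PRAC1 and PRAC2 between it and HOXB9. It was at 11.8, 13.7 and 11.4 CPM on DMSO and 7.86, 7.88 and 6.78 on toyocamycin, all 3 below all 8 DMSO libraries. The log2 fold change was -0.68 ± 0.16 (SE, edgeR adjusted p = 0.00123), which missed the threshold when a 1.5-fold minimum was required. HOXB1, the hindbrain gene at the other end of the cluster, had 0 counts in all 8 DMSO libraries and 30 counts over the 3 toyocamycin libraries of 72 h, at least 20.0-fold higher against a floor of 3 counts over the DMSO libraries. Its call was lost with the DESeq2 Wald test.

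In the HOXC cluster 6 of the 8 tested genes were higher at 72 h and 0 were lower with edgeR's test, as with the DESeq2 Wald test, and the median log2 fold change was 2.62. These 8 held 4 genes expressed on DMSO. The others were low or silent, classes in which 80.1% and 99.6% of all tested genes were higher. HOXC10 was at 12.2, 13.8 and 13.2 CPM on DMSO and 34.6, 40.5 and 42.3 on toyocamycin, a log2 fold change of 1.62 ± 0.15 for this gene of lumbar motor neurons, the most abundant of the cluster. HOXC13 was at 7.73, 6.04 and 4.46 CPM on DMSO and 21.2, 28.5 and 29 on toyocamycin; this gene of hair and nails had a log2 fold change of 2.15 ± 0.28. HOXC6 was at 1.14, 1.25 and 1.59 CPM on DMSO and 8.75, 12.8 and 11.6 on toyocamycin, a log2 fold change of 3.08 ± 0.27. HOXC10 was not called under mitochondrial scaling, where its change was 0.54.

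The low genes HOXC8 and HOXC9, which act at the level of the trunk, changed more. HOXC9 was at 0.0495, 0.325 and 0.129 CPM on DMSO and 10.4, 13 and 15.1 on toyocamycin, a log2 fold change of 6.22 ± 0.39 (edgeR adjusted p = 5.46e-10). It had been called higher at 2 h, at 1.2 and 0.921 CPM. The DMSO libraries of 10, 24 and 48 h were at 0.844, 1.01 and 0.289 CPM. Toyocamycin was at 2.36 and 0.662 CPM at 10 h, 1.24 at 24 h and 2.85 at 48 h. HOXC8 was at 0.347, 0.279 and 0.258 CPM on DMSO and 6.19, 6.21 and 6.95 on toyocamycin, a log2 fold change of 4.46 ± 0.34. HOXC12, silent on DMSO, had 8, 16 and 9 counts in the 3 toyocamycin libraries and 0 in the DMSO libraries of 72 h, at least 22-fold higher. HOXC4 and HOXC11 were not called, with log2 fold changes of 0.22 ± 0.34 and 0.26 ± 0.53 and overlapping groups. HOXC4 was at 1.54, 1.35 and 0.858 CPM on DMSO and 1.57, 1.2 and 1.48 on toyocamycin. HOXC5 had at most 3 counts in any DMSO library and 2, 6 and 5 counts on toyocamycin, and was too low to test. HOXC4 stayed within its DMSO range while HOXC6, HOXC8, HOXC9 and HOXC10 lay above theirs.

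In the HOXD cluster all 6 tested genes were called higher at 72 h, with a median log2 fold change of 2.71, and HOXD1, HOXD10 and HOXD11 were too low to test. Of the 6, only HOXD3 and HOXD8 were expressed on DMSO. The others were low or silent, classes in which 80.1% and 99.6% of all tested genes were higher. HOXD9 and HOXD13 had at most 7 and 1 counts in any DMSO library and entered the test through their toyocamycin counts. The cluster's count and median thus rest in part on the filter. HOXD8 was at 13.8, 11.6 and 9.31 CPM on DMSO and 41.4, 47.1 and 51.2 on toyocamycin, a log2 fold change of 2.04 ± 0.25, in the most abundant gene of the cluster. HOXD3 was at 1.44, 1.11 and 0.944 CPM on DMSO and 5.41, 6.67 and 6.34 on toyocamycin (2.43 ± 0.35). HOXD4 was at 0.297, 0.418 and 0.258 CPM on DMSO and 2.56, 3.52 and 1.65 on toyocamycin (3.00 ± 0.51). HOXD9, a gene of the limb and lumbar region, had 0 counts in the DMSO libraries of 72 h and 38, 49 and 51 counts on toyocamycin, at least 92.1-fold higher. HOXD13, which patterns digits, had 1 count over the 3 DMSO libraries of 72 h and 15, 26 and 16 counts on toyocamycin. The ratio of its CPM was 114, with an exact 95% counting interval from 19.7 to 4585. Its promoter window is the one shown above.

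HOXD10 had 9 counts over the 3 toyocamycin libraries and 0 on DMSO at 72 h, at least 6.01-fold higher, while HOXD11 had 1 and 0 counts, at or under the floor on both sides. HOXD12 was at 0.842, 0.464 and 0.601 CPM on DMSO and 0.688, 1.11 and 2.26 on toyocamycin; these overlap, and its call at a log2 fold change of 1.14 ± 0.46 (edgeR adjusted p = 0.0293) was lost in 4 other settings, among them the fit without replicate 3 of toyocamycin. HOXD1 stayed at no more than 0.371 CPM. Intervals and floors cover counting error only.

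Among expressed genes the posterior group 13 divided by cluster. HOXA13 and HOXB13, expressed on DMSO, were lower at 72 h, whereas HOXC13, also expressed, was higher. HOXD13, silent on DMSO, was higher as well, as were 99.6% of all tested silent genes. The other groups had no member called lower at 72 h with edgeR, although HOXB2 was called lower under library size alone and mitochondrial scaling. Group 9 had all 4 members higher, HOXA9, HOXB9, HOXC9 and HOXD9, and groups 3, 6 and 8 all 3. Among these, HOXC8, HOXC9 and HOXD9 were low on DMSO, a class in which 80.1% of all tested genes were higher. For groups 1, 5, 10 and 11 at least 1 member was too low to test. Over the time course HOXA13 and HOXB13 had their lowest values from 10 h on, between 1.57 and 4.08 CPM for HOXA13 against 7.51 to 16.3 CPM (median 9.53) on DMSO. HOXB13 was at 13.1 CPM at 24 h and 7 at 48 h, with DMSO at 28 and 12.5.

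Whether the effect at 72 h differed from that at 2 h was tested as an interaction in the same fit. It was larger at 72 h in 26 of the 35 tested HOX genes and lower in 1, HOXA13, where 38.0% of all genes were called in the first direction and 38.1% in the second. The call of HOXA13 was lost in 5 other settings and without replicate 1 of DMSO at 2 h, replicate 2 or 3 of DMSO at 72 h, replicate 1 of toyocamycin at 2 h, or replicate 1 or 3 of toyocamycin at 72 h. The difference was largest among expressed genes in HOXA3, at 5.19 ± 0.28 on the log2 scale, and stood at 3.79 ± 0.25 in HOXA5. HOXB4 had a small difference, 0.76 ± 0.28, which was lost under library size alone, with a 1.5-fold minimum and without replicate 1 of toyocamycin at 2 h, and turned to -0.19 under mitochondrial scaling. HOXB13 had a difference of -0.26 ± 0.25, edgeR adjusted p = 0.369.

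The genes around the clusters were measured to see where the rise ended. Of 32 genes among the 5 counted neighbours on each side that had at least 1 CPM on DMSO, 25 were lower at 72 h and 4 higher, with a median log2 fold change of -1.04. This compares with the 53.7% lower and 34.6% higher of all expressed genes given above. The nearest expressed neighbour was lower on 7 of the 8 sides. SKAP2, an adaptor protein gene 97.8 kb from the HOXA cluster, had a log2 fold change of -3.52 ± 0.25, and SKAP1, at 98.2 kb from HOXB1, -2.87 ± 0.23. On the far side of HOXB13, CALCOCO2, an autophagy receptor gene at 102 kb, stood at -3.51 ± 0.22. HIBADH, next to EVX1 beyond HOXA13, was at -1.13 ± 0.14, and CALCOCO1 and SMUG1 on the sides of HOXC were at -1.33 ± 0.15 and -0.87 ± 0.18. LNPK, 89.9 kb from HOXD13, was at -3.67 ± 0.24, and MTX2, 78.5 kb from HOXD1, at 1.23 ± 0.15. The 4 higher of these 32 genes, ATF2, MTX2, NFE2L2 and TTC30B, all flank HOXD, an observation made after their values were seen. They lie 924, 78.5, 1028 and 1358 kb from it. Of the neighbours under 1 CPM on DMSO, 3 of 4 tested low genes and 2 of 2 silent genes were higher. Among them were CREB5 on a side of HOXA, COPZ2 of HOXB and NFE2 of HOXC. Of all genes tested, 80.1% of low and 99.6% of silent ones were higher. The 7 lower nearest neighbours were lower under all 4 scalings, and MTX2 was not called under mitochondrial scaling.

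The even-skipped homeobox genes EVX1 and EVX2, which adjoin HOXA13 and HOXD13, were counted more often on toyocamycin. EVX1 had 2, 1 and 2 counts on DMSO and 17, 19 and 32 on toyocamycin at 72 h. EVX2 had 0, 0 and 2 counts on DMSO and 42, 27 and 32 on toyocamycin. EVX1 thus rose beside a HOXA13 that fell. EVX1 was low and EVX2 silent on DMSO, classes in which 80.1% and 99.6% of all tested genes were higher at 72 h. The interval between HOXB9 and HOXB13 holds PRAC1 and PRAC2, which had at most 4 counts in any library.

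**Figure D5:**
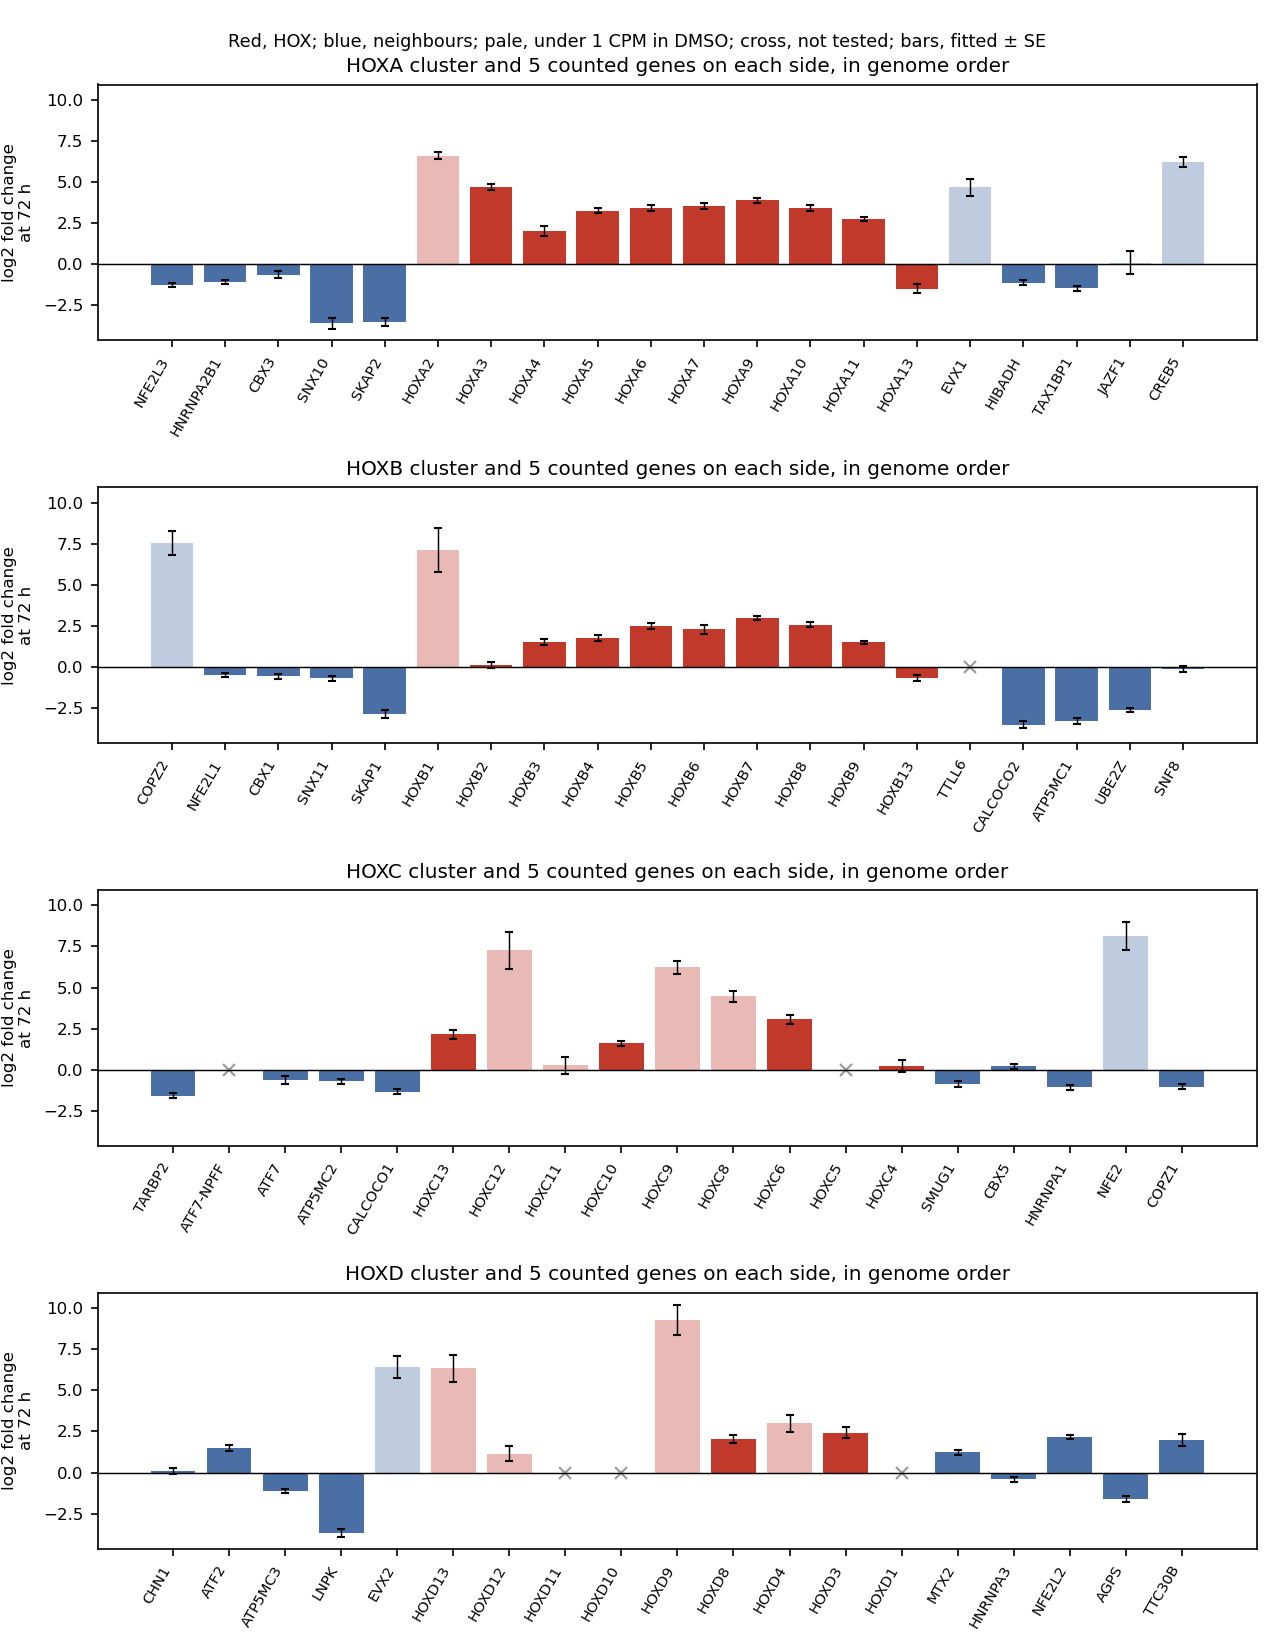
Fitted log2 fold change ± SE at 72 h for HOX genes (red) and the 5 counted genes on each side (blue), in genome order but not to scale. Pale bars are genes under 1 CPM on DMSO, whose fitted size depends on the prior count; most dark blue bars point down beside clusters whose red bars point up.

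Genes that act with or on HOX genes were counted by list. All tested cofactor, Polycomb, Trithorax and MLL, and insulator genes were expressed on DMSO. Of all genes in that class, 34.6% were higher and 53.7% lower at 72 h, and the counts below stand beside these shares. Of the 7 tested HOX cofactors, 2 were higher and 4 lower at 72 h, among them PBX2 and PKNOX1 with log2 fold changes of -2.05 and -1.84. Of 32 Polycomb genes 13 were higher and 18 lower. BMI1, a core subunit of Polycomb repressive complex PRC1, rose by 5.26 and JARID2, an accessory subunit of PRC2, by 4.35, while PHF19 and PHC1 fell by 4.07 and 3.55. Of 20 Trithorax and MLL genes 5 were higher and 13 lower. KDM6B, a demethylase that removes the Polycomb mark, rose by 5.93, and PSIP1, ASH2L and KMT2B, an MLL tether, an MLL core subunit and an MLL methyltransferase, fell by 3.73, 3.03 and 2.73.

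Among 8 insulator and cohesin genes, 2 were higher and 5 lower, with the cohesin subunits SMC1A, SMC3, RAD21 and STAG2 falling by 3.07, 2.79, 1.57 and 1.43. Under library size alone 0 were higher and 6 lower with edgeR's test. The retinoic acid list had 6 higher and 3 lower of 10 tested. Of its 7 tested genes expressed on DMSO, 4 were higher and 3 lower. DHRS3 and CYP26B1, which limit the level of retinoic acid, rose by 3.60 and 2.16. Among the receptors RARG and RXRA fell by 4.09 and 3.68, and RARA and RXRB rose by 2.10 and 0.81. The 11 tested homeobox genes related to or linked with HOX genes held 10 higher and 0 lower with edgeR's test, EVX1 and EVX2 among them, and 1 was lower under library size alone and under mitochondrial scaling. Of these 11 genes, 2 were low and 6 silent on DMSO, and all 8 were higher, beside the 80.1% and 99.6% of all low and silent genes given above, while of the 3 expressed genes 2 were higher. MNX1 had a log2 fold change of 2.60. CDX2, the intestinal regulator that acts upstream of posterior HOX genes, had one of 0.61, which was 0.01 under library size alone and -0.52 under mitochondrial scaling.

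Markers were checked for the cells' identity. Of the 12 intestinal epithelium markers, 8 had at least 1 CPM on DMSO. The sum of all 12 ranged over 1762 to 6932 CPM on DMSO and 538 to 574 CPM on toyocamycin at 72 h. KRT8 had the highest median on DMSO, and at 72 h EPCAM, CDH1, KRT8, KRT18 and KRT19 lay below all DMSO libraries. CDH17 went the other way, from 0.896 to 2.42 CPM on DMSO to 6.17 to 10.4, and LGALS4 reached 2.46 to 5.3 CPM. CDX2, at 96.9 to 114 CPM, lay within its DMSO range of 56.6 to 284. KRT20, CDX1, LGALS4 and GPA33 were at or near 0 on DMSO. The sum of the 8 fibroblast markers was 0.464 to 12.5 CPM on DMSO and 2.85 to 22 at 72 h of toyocamycin, that of the 4 endothelial markers 0 to 0.668 and 2.06 to 3.91, and that of the 5 leukocyte markers 0.0929 to 0.591 and 15.5 to 18.7, nearly all of it CD14. The part of these shifts in the HOX values was not tested.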

How the data were processed

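Polyadenylated RNA of YB5 cells was sequenced in paired ends, and the authors aligned reads with STAR 2.7.5a to GRCh38 with the Ensembl 100 annotation and deposited STAR's gene counts, as whole-number counts per gene with no normalization. The replicates are labelled as biological. The count table holds 19141 genes, of which 18868 were matched to a symbol through GENCODE 44 (GRCh38), and 1 column of counts that matches no sample was not used. A table of the authors' own comparisons was not used. Counts were scaled by TMM and tested with the quasi-likelihood test of edgeR 4.0.16 (R 4.3.3), after edgeR's expression filter, on all genes that passed, and p-values were adjusted by Benjamini-Hochberg over all of them with a threshold of 0.1. Libraries of 2, 24, 48 and 72 h (14) entered one fit, and all 17 the fit for 10 h. At 24 and 48 h a 2-fold change was counted instead. Lower bounds of folds use a floor of 3 counts over the group. DESeq2 1.42.0, other scalings, filters, thresholds, a batch term, a replicate block and single libraries left out were tried as alternatives, and the test was checked on simulated data. At 2 h the replicate number is the labelled batch, so it pairs the libraries; their deviations from the group means correlated at 0.342. Every HOX gene was accounted for, 35 or 36 of 39 passing the filter. The members and lists were chosen with earlier results of these data known. Values of some single genes are not reported here.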

Additional observations from a re-analysis of the deposited data

Results flagged for a closer look

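The effect of toyocamycin differed between 2 and 72 h in the 26 HOX genes given here, by the interaction term of edgeR's fit, adjusted after Benjamini and Hochberg with a threshold of 0.1. Values are the log2 effect at 72 h minus the log2 effect at 2 h. In the HOXA cluster the difference was 6.29 for HOXA2, 5.19 for HOXA3, 1.98 for HOXA4, 3.79 for HOXA5, 3.37 for HOXA6, 3.63 for HOXA7, 3.43 for HOXA9, 3.16 for HOXA10 and 2.96 for HOXA11. HOXA13 had the only negative difference called, -0.78. In the HOXB cluster it was 1.94 for HOXB3, 0.76 for HOXB4, 2.37 for HOXB5, 1.80 for HOXB6, 2.79 for HOXB7, 2.46 for HOXB8 and 1.24 for HOXB9. In the HOXC cluster it was 3.17 for HOXC6, 3.73 for HOXC8, 4.04 for HOXC9, 1.39 for HOXC10, 9.38 for HOXC12 and 2.40 for HOXC13, and in the HOXD cluster 3.12 for HOXD3, 2.06 for HOXD8 and 10.04 for HOXD9. The values of HOXC12 and HOXD9 are fitted on near-zero DMSO counts and depend on the prior count: the DMSO libraries of 2 and 72 h hold 1 count of HOXC12 and 7 of HOXD9, all in replicate 1 of 2 h, and neither was called without that library. The difference of HOXB4 turned to -0.19 under mitochondrial scaling, and that of HOXA13 was lost when each of 6 of the 10 libraries was left out.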

How the results depend on the processing

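At 72 h the 30 higher and 2 lower HOX genes stayed within 21 to 32 and 1 to 3 over 12 alternatives, the 1 lower being with a 1.5-fold minimum. The median log2 fold change at 72 h was 2.90 with DESeq2's size factors and with its Wald test, 1.98 under library size alone and 1.47 under mitochondrial scaling. HOXB2 at 72 h reversed to -0.49 and -0.98 under the last 2 scalings. At 10 h, 17 genes were higher with DESeq2's size factors, 18 with the Wald test, 6 under library size alone, with a 1.5-fold minimum or at an adjusted p under 0.05, and 1 under mitochondrial scaling; 5 were lower under library size alone, mitochondrial scaling or a batch term. At 2 h, 0 were higher and 0 lower under mitochondrial scaling, 1 was higher with a 1.5-fold minimum, and 2 were lower under library size alone or a batch term. The replicate block gave 4 higher and 6 lower at 2 h. Replicate numbers did not pair the libraries of 72 h (correlations -0.133, 0.0613 and -0.118, none best with its own number), and the block there gave 28 higher and 2 lower. Between 2 and 72 h of DMSO, 1 gene rose under library size alone, mitochondrial scaling, a 1.5-fold minimum, an adjusted p under 0.05, all 17 libraries or a batch term, and 0, 1 and 4 fell under mitochondrial scaling, the 1.5-fold minimum and all 17 libraries. The negative interaction numbered 3 under library size alone and 0 with DESeq2's size factors, the Wald test, at least 10 counts per library, the 1.5-fold minimum or an adjusted p under 0.05. With 0 counts required, 1 gene was silent on DMSO. Leaving out 1 library gave 28 to 30 higher and 2 to 2 lower at 72 h, 1 to 4 and 1 to 4 at 2 h, 8 to 17 and 3 to 5 at 10 h, 1 to 4 and 4 to 9 over time on DMSO, and 24 to 27 and 0 to 1 for the interaction, with medians of 2.51 to 2.65 at 72 h and -0.074 to 0.30 at 2 h. The causes of these shifts were not tested. Low and silent genes rest on few counts.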
